A study of Cucumis sativus with 33 samples.

Results

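The corolla of a super ovary in cucumber stayed in the green yellow bud stage for 3 sampled days, and its gene expression was followed over those days. The 9 libraries described were taken at 3, 4 and 5 days after labeling (S3, S4 and S5, 3 libraries each), out of 33 libraries in the series. They were chosen by their labels, ovary type and day. S5 was compared with S3, and S4 served as the midpoint that tells a steady change from a reversal on day 4. All plants were inbred line 6457, the flowers were bagged against pollination, and each library mixed 5 corollas. Super ovaries (S) came from well fed and watered plants that set 1 fruit only, from the female flower nearest the growing point. Normal ovaries (N) came from plants short of fertilizer and water, on which 1 or 2 other fruits were set. Days were counted from the day the ovary became visible. Around the green yellow bud, the super course had a green bud on day 1 (S1), yellow buds on days 7 and 8 (S7, S8) and open flowers on day 9 (S9). Normal ovaries passed the same stages sooner, with a green bud on day 1 (N1), a green yellow bud on day 3 (N3), a yellow bud on day 4 (N4) and an open flower on day 5 (N5). Because the treatments differed in fertilizer, water and fruit load together, these cannot be told apart in any comparison of S with N.

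The corolla is the whorl of petals. In a young bud its cells are small and green, with working chloroplasts. As the bud matures, cell division gives way to cell expansion, chlorophyll is lost and carotenoids accumulate in plastids that become chromoplasts, which gives a cucumber petal its yellow colour. Opening of the flower, anthesis, follows when the petals expand and bend outward. Petals of one bud need not be in step, so a pool of buds at a mixed colour stage is a mixture of cells at different points of this course. In such whole-organ libraries, fewer cells of a type and less RNA per cell cannot be told apart.

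The deposited unit was RPM, a gene's read count scaled so that each library sums to 1000000, and 23248 genes were listed. Recovered library totals are given for 8 of the 9 libraries, all but S4 replicate 2. They ran from 16858703 to 21310292 reads, so that 3 reads above the lowest value correspond to 0.188 to 0.237 RPM. Replicates of a day correlated at 0.996 to 0.997 across genes, which are not independent replicates. The identifiers could not be joined to gene names, since 0 of them matched a table of 23999 RefSeq genes. The text therefore names 4 genes by identifier only, gives them no role, and describes the others in groups. For the same reason the corolla label could not be checked against marker genes. Genes with a mean of at least 1 RPM in 1 or more groups, 18905 in all, were tested with limma on log2(RPM + 1), which understates the change of genes with low values. Calls required a Benjamini-Hochberg adjusted p below 0.05 together with a 2-fold difference or more. The submitters call the replicates biological, but whether the pools came from separate plants is not stated, so the p-values cover only how far these pools vary.

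The 9 libraries lay in the order of their days on courses built from other libraries. The difference between S9 and S1 over its 8904 called genes (47.1% of those tested) was taken as a line, with S1 at 0% and S9 at 100%, and each library was placed on it by projection. S3 libraries stood at 11.3%, 13.2% and 13.8% of the way, S4 libraries at 21.5%, 21.0% and 22.7%, and S5 libraries at 30.6%, 30.2% and 26.4%. No library of one day overlapped another day. Group means were 12.8% ± 1.34 in S3, 21.7% ± 0.89 in S4 and 29.1% ± 2.34 in S5 (SD, n = 3 each), with S7 at 57.6% ± 7.9 by day 7.

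A second line ran from N1 (0%) to N3 (100%), the passage from green to green yellow bud in normal ovaries, over 3366 called genes (17.8%). S3 libraries averaged 26.7% ± 2.82 of that way, S4 libraries 45.8% ± 3.30 and S5 libraries 62.4% ± 6.78 (SD, n = 3 each). Every S3, S4 and S5 library thus stood short of N3 on this line. N3 libraries lay at 96.2% to 103.9%, around an end that the choice of the line fixes at 100%. Both lines used the deposited values only, and rescaled libraries were not placed on them. S7, labelled a yellow bud, stood at 100.3% to 128.9%. S5 replicate 3 lay behind the other S5 libraries on both lines.

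**Figure D1:**
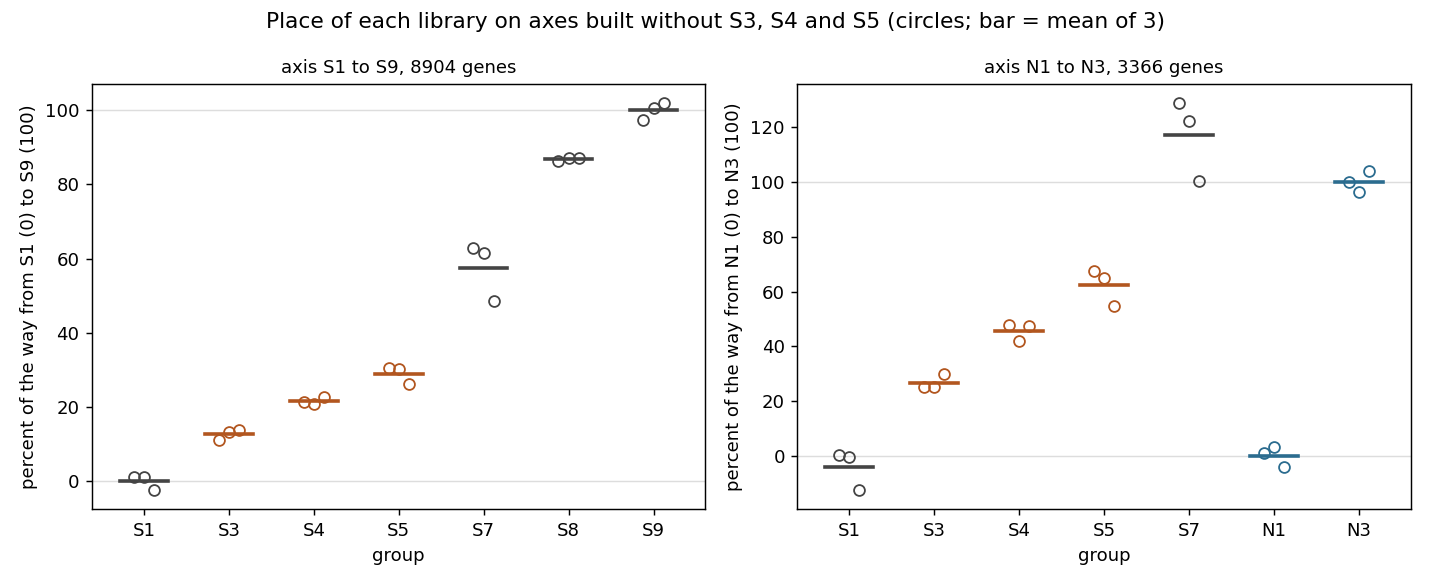
Place of each library (circles, bar for the mean of 3) in percent of the way from S1 to S9 (left) and from N1 to N3 (right), lines built from genes called between those end groups. S3, S4 and S5 rise without overlap on both lines, up to 30.6% on the left and 67.3% on the right.

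A principal component analysis was also made of the 9 libraries alone. The first component held 56.8% of the variance and ordered the libraries by day, from -35.0 to -31.0 in S3, -2.05 to 4.83 in S4 and 25.3 to 35.6 in S5. The second held 17.5% and set day 4 apart from both of its neighbours. On it the S4 libraries scored 16.6 to 24.2, the S3 libraries -13.1 to -3.71 and the S5 libraries -13.7 to -4.34. Once the first component orders the days, the main direction left between them is S4 against S3 and S5. Genes that move steadily but mostly early or mostly late give such a component too, so it does not show a reversal on day 4. The gradual course and the genes with day 4 off the midpoint are described in turn.

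Over the 2 days from S3 to S5, 463 genes rose (2.45% of the genes tested) and 383 fell (2.03%), together 4.48%. The median riser changed by 1.29 on the log2 scale and the median faller by -1.33, and 51 risers and 40 fallers changed by 4-fold or more. With no limit on size, 4091 genes were higher in S5 and 3583 lower (40.6%). The median gene changed by 0.02. Libraries were also rescaled, each divided by the median of its gene ratios to the geometric mean over all libraries, and then 393 genes rose and 407 fell. A pseudocount of 0.1 gave 1387 calls, a pseudocount of 5 gave 379, and edgeR run on the recovered reads gave 1469.

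Risers together took up a growing part of the RNA counted. Their summed level was 7565 to 7728 RPM in the S3 libraries, 11984 to 13511 RPM in S4 and 17341 to 24633 RPM in S5. The choice of the genes fixes the order of S5 and S3. S4 overlapped neither, and S5 replicate 3 was the lowest of its day. Fallers summed to 16302 to 25021 RPM in S3, 9320 to 11909 RPM in S4 and 5867 to 7584 RPM in S5, again without overlap. The 10 genes with the largest difference in RPM held 28.9% of the gain of the risers and 48.4% of the loss of the fallers. In the group where they were higher, the risers had a median of 15.4 RPM in S5 with quartiles of 6.60 and 40.9 RPM, and the fallers a median of 17.0 RPM in S3 with quartiles of 9.87 and 36.6 RPM. Means of 100 RPM or more were reached by 42 risers and 22 fallers.

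Day 4 lay between day 3 and day 5 for most of these genes. The S4 mean, which enters neither side of S5 against S3, was between the S3 and S5 means for 366 of 463 risers (79.0%) and 362 of 383 fallers (94.5%), against 52% of all genes tested. It was on the far side of S3 for 48 risers and 9 fallers, and on the far side of S5 for 49 risers and 12 fallers. In every library S3 was below S4 and S4 below S5 for 191 risers (41.3%), where 4.68% of all genes tested had this order. The reverse order held in every library for 256 fallers (66.8%), against 6.63% of all genes. Risers and fallers were chosen for a gap between S3 and S5, which leaves more room for S4 between them than in most genes. The shares over all genes are therefore not a like background.

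By day 4 the median faller had covered more of its change than the median riser. As a share of the change from S3 to S5 on the log2(RPM + 1) scale, the median riser had made 46.9% of it by day 4, with quartiles of 24.8% and 71.6%. The median faller had made 63.3%, with quartiles of 41.4% and 75.9%. The fallers with a log2 change of 1.5 or more, 151 genes, lay closer together, with a median of 70.6% and quartiles of 62.2% and 77.0%. Of these, 138 had passed the midpoint by day 4. Among the 129 risers of that size the median was 54.0% and the quartiles were 36.8% and 90.9%. With smaller changes the medians were close, at 49.6% for the other 232 fallers (quartiles 31.3% and 73.9%) and 45.0% for the other 334 risers (quartiles 18.9% and 64.8%). The added 1 compresses low levels, which are the end of a fall and the start of a rise. It can therefore raise the share of fallers and lower that of risers, and the shares are given on this scale only. The split at 1.5 was not part of the design. This is a description of the groups, and the difference between them was not tested.

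**Figure D2:**
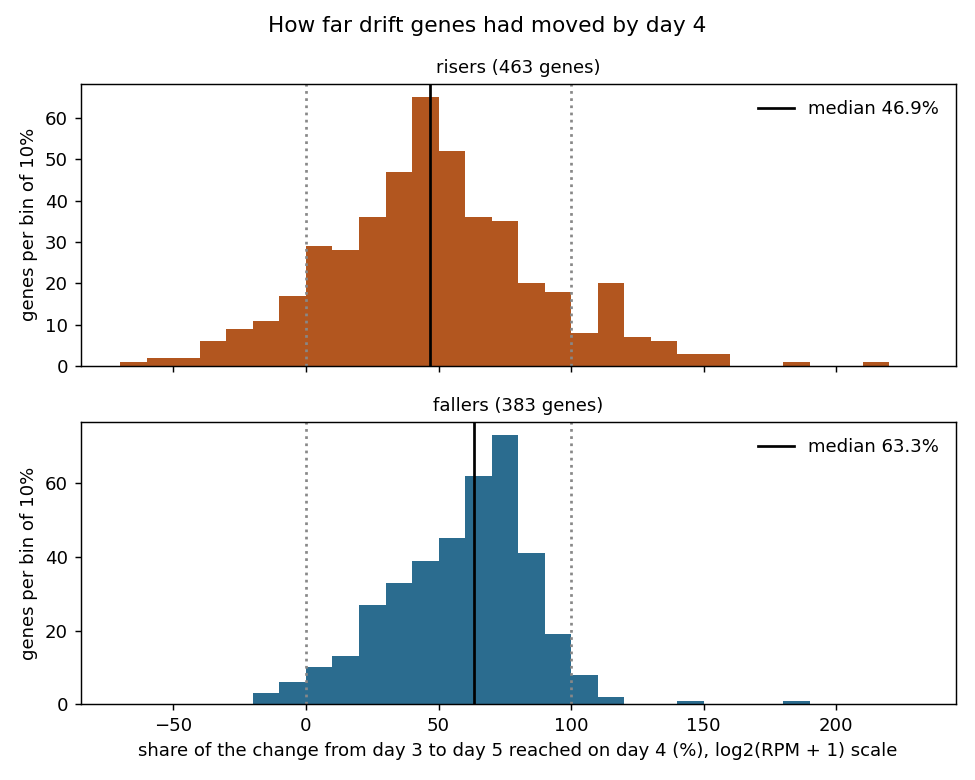
Share of the change from day 3 to day 5 that had been made on day 4, in percent, for 463 risers (top) and 383 fallers (bottom), counted in bins of 10%. Dotted lines mark 0% (still at the S3 level) and 100% (already at the S5 level), and the black lines mark the medians of 46.9% and 63.3%.

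On the first of the single days, S4 against S3, 156 genes rose (0.825%) and 184 fell (0.973%), together 1.8%. On the next, S5 against S4, 177 rose (0.936%) and 51 fell (0.27%), together 1.21%. These comparisons share the S4 libraries, and each shares a day with S5 against S3. A rise on both days was called for 13 genes and a fall on both days for 5. Without S4 replicate 1 the second day had 118 rises and 76 falls, and without S5 replicate 3 it had 253 and 57.

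The largest rise from S3 to S5 was that of Csa2G292830. It stood at 3.19, 7.67 and 3.76 RPM in S3, at 47.07, 51.45 and 106.06 RPM in S4 and at 102.01, 95.59 and 149.98 RPM in S5. S3 was far below both later days, while S4 replicate 3 lay within the range of S5. The log2 change from S3 to S5 was 4.36 (SE 0.42, adjusted p 8.5e-09 by limma), of which 3.54 came by day 4 (SE 0.42, adjusted p 9.2e-07). Day 4 was 1.36 above the midpoint of S3 and S5 (SE 0.37, adjusted p 0.023), a call that was lost without S4 replicate 3 (0.99, adjusted p 0.17), without S3 replicate 1 (adjusted p 0.055) and with a pseudocount of 0.1 (adjusted p 0.18).

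The high level was held to day 7 in the super course, and no normal library reached it. In S1 the libraries held 0.05, 0.04 and 0.10 RPM, at or under 3 reads. On day 7 it held 120.89, 52.78 and 167.31 RPM, on day 8 it held 0.75, 1.83 and 0.05 RPM, and on day 9 it held 0.12, 0.09 and 0.23 RPM. In normal corollas N1 and N3 libraries held 0.04 to 0.12 RPM, N4 held 0.05, 0.05 and 1.52 RPM, and N5 held 13.21, 3.08 and 8.31 RPM.

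The largest fall was that of Csa3G021150. It stood at 36.52, 82.5 and 37.1 RPM in S3, at 2.77, 2.97 and 7.36 RPM in S4 and at 1.65, 1.91 and 4.23 RPM in S5. S3 replicate 2 was more than 2-fold above the other S3 libraries, all S3 libraries were above S4 and S5, and S4 and S5 overlapped. The log2 change from S3 to S5 was -3.84 (SE 0.50, adjusted p 1.1e-06), and from S3 to S4 it was -3.30 (SE 0.50, adjusted p 3.2e-05). On day 1 it had been lower than in S3, at 15.62, 15.34 and 19.88 RPM. Normal corollas held 45.4 to 81.18 RPM in N1, 4.73 to 21.33 in N3, 14.56 to 70.79 in N4 and 4.3 to 14.49 in N5. Replicates of N3, N4 and N5 differed by 3-fold or more. By limma the gene fell from N1 to N3 (log2 -2.57, adjusted p 6.7e-05). It then rose from N3 to N4 (1.86, adjusted p 0.0018) and fell again from N4 to N5 (-2.04, adjusted p 0.00075).

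**Figure D3:**
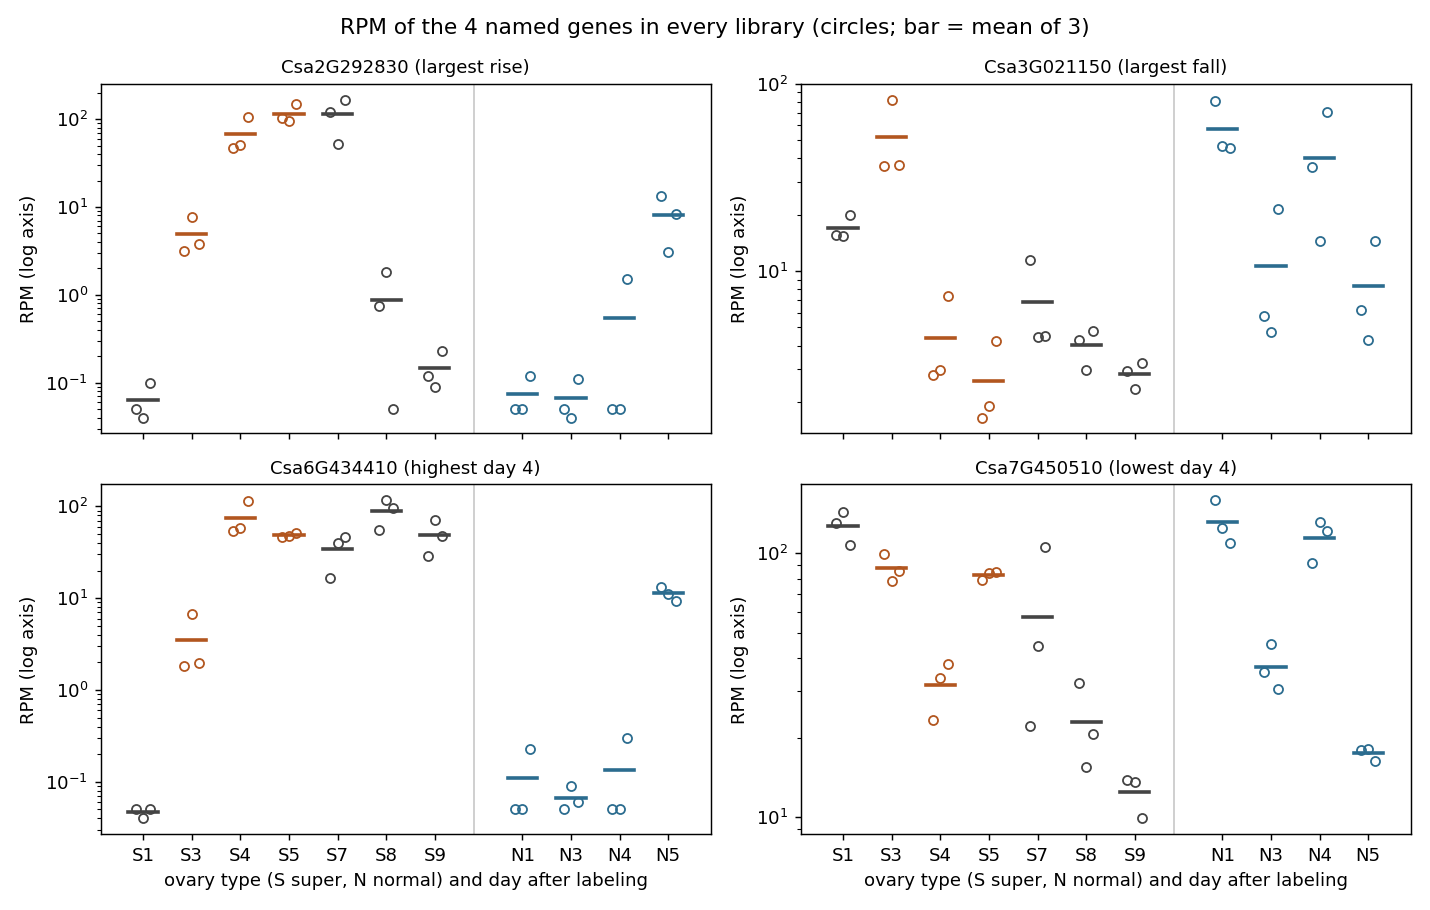
RPM of the 4 named genes in every library (circles, log axis), with the mean of 3 as a bar, in super ovaries on days 1 to 9 (left of the line in each panel) and normal ovaries on days 1 to 5 (right of it). S3, S4 and S5 are in orange. Csa2G292830 and Csa6G434410 climb between S3 and S4, Csa3G021150 drops in the same interval, and Csa7G450510 dips on S4 only among these days, at 23.23 to 38.08 RPM.

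Reversals on day 4 were sought by testing S4 against the midpoint of S3 and S5, a contrast orthogonal to S5 against S3. Day 4 was above the midpoint for 65 genes (0.344% of the genes tested) and below it for 23 (0.122%), together 0.465%. The S4 mean lay outside the range of the S3 and S5 means for 61 of the 65 and all 23. All 3 S4 libraries were beyond every S3 and S5 library for 35 and 10 of them, and 4.45% and 3.57% of all genes tested had such an order. Reversals called on both single days were fewer. A rise into day 4 and a fall after it was called for 8 genes, and a fall into day 4 and a rise after it for 2. With no limit on size, 800 genes were above and 587 below the midpoint.

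The day 4 calls rested in part on single libraries. Without S4 replicate 3 there were 26 genes above and 36 below the midpoint, without S4 replicate 1 there were 85 and 8, and without S5 replicate 3 there were 65 and 51. Of the 65 and 23 genes, 23 and 6 were called in the same direction whichever of the 9 libraries was left out. A pseudocount of 5 left 16 above and 6 below.

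Csa6G434410 had the largest departure upward. It stood at 1.84, 6.77 and 1.98 RPM in S3, at 53.31, 58.16 and 114.01 RPM in S4 and at 45.84, 47.9 and 50.83 RPM in S5. Day 4 was above both neighbours in every library, and S4 replicate 3 was the highest of them. S4 exceeded the midpoint by 2.35 in log2 units (SE 0.31, adjusted p 5.9e-05), and the value ranged from 2.01 to 2.59 with 1 library left out. From S4 to S5 it changed by -0.55 (SE 0.36, adjusted p 0.31), so a reversal was not called. Like Csa2G292830 it was at 0.04 to 0.05 RPM in S1, at 0.05 to 0.30 RPM in N1, N3 and N4 and at 9.27 to 13.35 RPM in N5, but in S9 it still held 28.62 to 71.89 RPM.

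Csa7G450510 had the largest departure downward and did reverse. It stood at 99.06, 78.24 and 85.54 RPM in S3, at 23.23, 33.52 and 38.08 RPM in S4 and at 79.02, 84.19 and 84.78 RPM in S5. S4 lay below both neighbours in every library, and S3 and S5 overlapped. The log2 difference of S4 against S3 was -1.46 (SE 0.32, adjusted p 0.0017), that of S5 against S4 was 1.39 (SE 0.32, adjusted p 0.0032), and that of S4 against the midpoint was -1.43 (SE 0.28, adjusted p 0.0024). S5 against S3 gave -0.08 (SE 0.32, adjusted p 0.88), which was not called. Normal corollas held 109.32 to 158.84 RPM in N1, 30.52 to 45.45 in N3, 91.7 to 130.95 in N4 and 16.25 to 18.18 in N5. That course went down, up and down again across groups labelled as different stages, while S3, S4 and S5 were all green yellow buds.

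**Figure D4:**
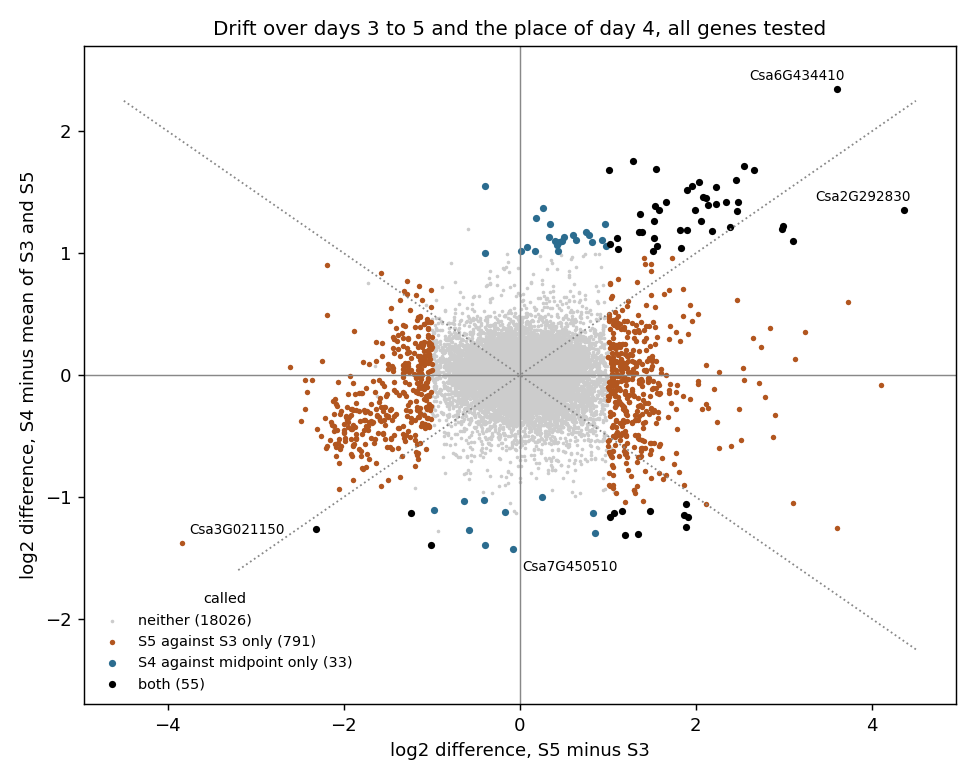
Log2 difference of S5 minus S3 (x axis) and of S4 minus the mean of S3 and S5 (y axis) for each of the 18905 genes tested, coloured by the test that called it. Between the dotted lines, to the left and right, the S4 mean lies between the S3 and S5 means, and above or below them it lies outside. Departures upward (65 genes) gather on the side of the risers, while those downward (23 genes) are spread.

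Many of the genes with a high day 4 were near the lower limit of counting in S1 and in normal buds. Of the 65, 43 had at most 3 reads in all 3 S1 libraries, against 1.74% of all genes tested, and 37 had at most 3 reads in all 9 libraries of N1, N3 and N4, against 0.931%. Levels in S1 and the normal buds do not enter the day 4 difference, but these libraries share in the estimate of each gene's spread. Fitted on the 9 libraries alone, the same 65 genes were called above the midpoint. In S7 against S1, 62 of the 65 were called higher, beside 10.2% of all genes tested, and in S9 against S1, 59 (16.8% of all genes). For the 43 with at most 3 reads in S1, a fall against S1 could not be called. In N5 against N4, 46 of the 65 were called higher (16.9% of all genes). The 37 genes, a subset picked after their values were seen, had a median level of 1.67 RPM in S3, 11.4 RPM in S4 and 7.70 RPM in S5. Later it was 6.81 RPM in S7, 10.5 RPM in S8 and 8.55 RPM in S9, and in normal corollas 1.35 RPM in N5. Of the 37, 33 were called higher in S9 against S1, beside 16.8% of all genes. In N5 against N4, 25 were called higher, beside 16.9% of all genes. The choice of the 37 fixes their low level in N1, N3 and N4, so that in N5 against N4 a rise was the only change open to them. Their median in S1 was 0.047 RPM, so that against S1 too a rise was the only change open to most of them.

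The 37 genes varied together between replicate libraries. Their summed level was 76.75, 226.91 and 96.56 RPM in S3 replicates 1, 2 and 3, and 381.72, 443.49 and 692.4 RPM in S4. Replicate 2 was the highest S3 library for 36 of the 37, where it was so for 43.6% of all genes tested, and replicate 3 was the highest S4 library for all 37, against 33.7% of all genes. This was not particular to the 37, as it held for 61 and 63 of all 65 genes with a high day 4. The 65 were called for a high S4, and without S4 replicate 3 only 26 genes were called. A high S4 replicate 3 thus follows in part from the choice, and all genes tested are not a like background for it. In S5 the sums of the 37 were 281.03, 316.29 and 305.65 RPM and close to each other. With no gene names, no marker list of another floral tissue could be formed, and the part of other tissue in these levels was not tested.

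The genes with a low day 4 were described in the same way. None of the 23 was at or under 3 reads in all S1 libraries. As only 1.74% of all genes tested were, this does not set the 23 apart from genes in general. Their summed level was 1405 to 1577 RPM in S3, 534 to 708 RPM in S4 and 1216 to 1346 RPM in S5, a low S4 that the choice of the genes fixes. In S7 against S1, 10 of them were called higher and 9 lower, beside 10.2% and 21.2% of all genes. In N4 against N3, 4 were called higher and 13 lower, beside 5.93% and 19% of all genes.

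Whether the genes that moved from S3 to S5 also differed from S1 at later stages was read from comparisons without any S3 or S5 library. S7 against S1 and S9 against S1 span the interval from S3 to S5. A gene that moved in that interval and then stayed level can therefore be called too, and these calls do not show continued movement. In S7 against S1, 392 of the 463 risers were higher and 2 lower, where 10.2% of all genes tested were higher and 21.2% lower. They were 84.7% of the risers and 20.3% of the genes higher in S7. For the 60 risers with at most 3 reads in all S1 libraries, a fall against S1 could not be called. Of the 383 fallers, 359 were lower and 0 higher, which is 93.7% of the fallers and 8.94% of the genes lower in S7. Without S7 replicate 3, which at 48.5% was the lowest of S7 on the line from S1 to S9, 368 risers were higher and 356 fallers lower. The median riser was 2.13 above S1 and the median faller -3.31 on the log2 scale, against -0.17 for all genes. In S5, whose libraries chose the genes, these medians over S1 were 1.69 and -2.15, against -0.02 for all genes. Calls of S7 against S5 were not counted for risers and fallers, so how many moved further was not tested.

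The open flower was compared in the same way. In S9 against S1, 359 of 383 fallers were lower and 3 higher, beside 30.3% and 16.8% of all genes, and 335 of 463 risers were higher and 32 lower. Of the risers, 308 were higher in both S7 and S9 than in S1, and 84, Csa2G292830 among them, were higher in S7 but were not called higher in S9. The summed level of the risers was 50697 to 55667 RPM in S7, 58074 to 63068 RPM in S8 and 37748 to 39195 RPM in S9, all above S5.

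The means of normal ovaries share no library with S5 against S3, but the calls share the estimate of each gene's spread. In N3 against N1, 282 fallers were lower and 1 higher, where 11.4% of all genes were lower and 6.42% higher, and 227 risers were higher and 2 lower. In N4 against N3, 247 fallers were lower and 9 higher, beside 19% and 5.93% of all genes, while 138 risers were higher and 112 lower. In N5 against N4, 178 risers were higher and 104 lower, beside 16.9% and 8.52% of all genes, and 18 fallers were higher and 58 lower. The median riser changed by 0.98, 0.04 and 0.57 over these 3 steps on the log2 scale, and the median faller by -1.99, -1.31 and -0.14, where the median of all genes tested was -0.19, -0.31 and 0.20. The summed level of the risers, in contrast, was highest in N4. It was 7073 to 9418 RPM in N1, 25773 to 30030 RPM in N3, 76094 to 82395 RPM in N4 and 39477 to 40749 RPM in N5. Once libraries were rescaled by the median of their gene ratios, 170 risers were higher and 92 lower in N4 against N3, and 200 fallers were lower and 13 higher. That rescaling moved the share of calls over all genes that were higher to 44.4% in S7 against S1 (32.5% as deposited), 51.2% in S9 against S1 (35.6%), 53.1% in N3 against N1 (36.0%), 46.9% in N4 against N3 (23.8%) and 51.4% in N5 against N4 (66.4%).

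Against N1, 6.42% of all genes tested were called higher in N3, 8.93% in N4 and 15% in N5, and 11.4%, 32.9% and 26.4% lower. Called higher in 1 or more of these 3 were 368 risers, and 95 (20.5%) were called higher in none of the 3, as were 79.9% of all genes tested. At most 3 reads in all libraries of N1, N3 and N4 were found for 39 risers (8.42%, against 0.931% of all genes), of which 16 were called higher in N5 against N4, beside 16.9% of all genes. From so low a level in N4 a fall could not be called. Among the fallers, 18 (4.70%, against 61.3% of all genes) were called lower in none of N3, N4 and N5 against N1.

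**Figure D5:**
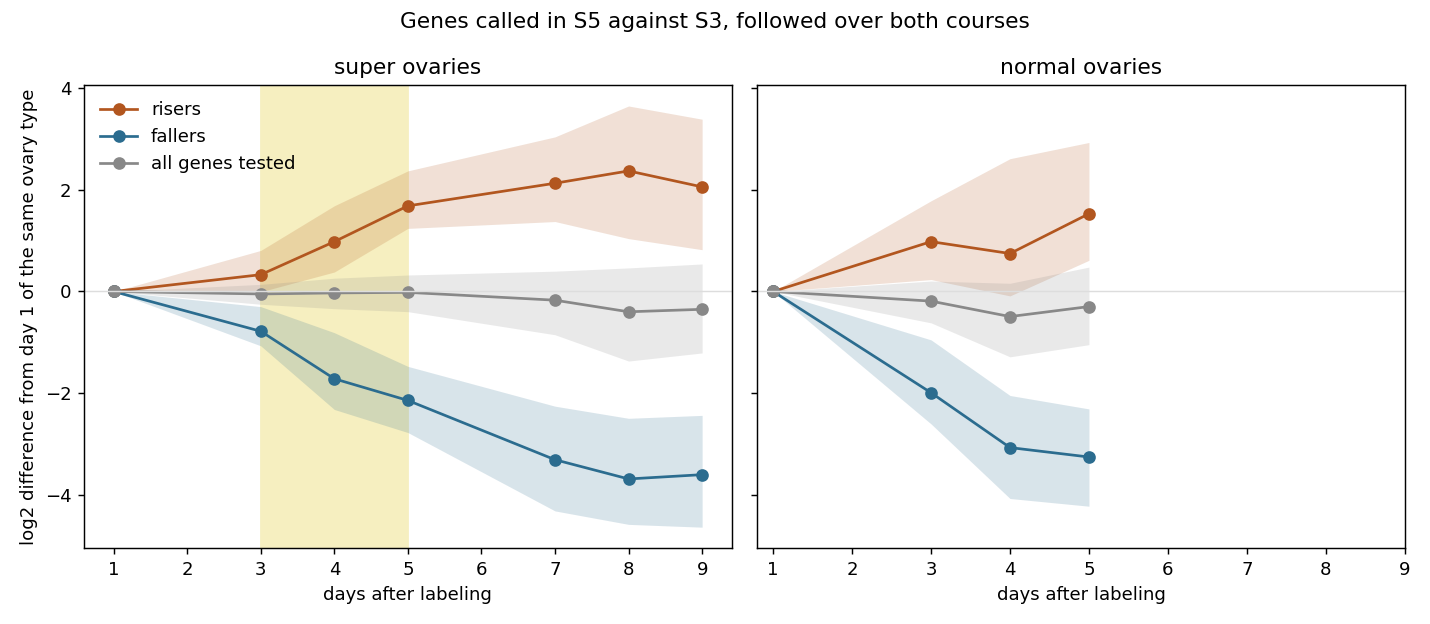
Median (points) and quartiles (bands) of the log2 difference from day 1 of the same ovary type for risers, fallers and all genes tested, in super ovaries (left) and normal ovaries (right). Yellow marks days 3 to 5 of super ovaries, which chose the genes. Fallers reach a median of -3.31 in S7 and -3.07 in N4, while the band of the risers widens after day 5 and in N4.

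The steps into and out of the stage also took 2 days each. From green to green yellow bud, S3 against S1, 399 genes rose (2.11%) and 474 fell (2.51%), together 4.62%, beside the 846 calls within the stage. Into the yellow bud, S7 against S5, 615 rose (3.25%) and 1633 fell (8.64%), together 11.9%. Neighbouring steps share libraries, and the differences between the counts were not tested. The balance of the last step moved with scaling: rises made up 27.4% of its calls on the deposited values, and 52.3% (953 of them, beside 870 falls) once libraries were rescaled. Without S7 replicate 3 it had 3185 calls.

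Over the same 2 days normal corollas passed from green yellow bud to open flower. In N5 against N3, 2056 genes rose and 2522 fell (24.2%). The change from day 3 to day 5 in super ovaries was tested against the other ovary type by the interaction in limma. It was more positive in the super type for 2441 genes (12.9%), and for 1626 (8.6%) it was more negative, together 21.5%. After rescaling these were 1997 and 1993. Of the genes that moved within the super bud, 182 risers were higher in N5 against N3 (39.3%, against 10.9% of all genes) and 62 lower, while 245 fallers were lower (64.0%, against 13.3% of all genes) and 6 higher. Csa3G021150 changed by -3.84 in super ovaries and by -0.18 in normal ones, an interaction of -3.66 (SE 0.71, adjusted p 9.1e-05). In normal ovaries this gene had already changed by -2.57 from N1 to N3, before the days compared.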

How the data were processed

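Corollas were profiled by RNA-seq in 33 libraries of 11 groups, 3 each, grouped by the ovary type and day in their titles. The authors deposited 1 table of RPM values (reads scaled to 1000000 per library). TopHat and HTSeq were used, per the submitters' processing notes. The build, the annotation and tool versions are not given in sources used here. The table held no value of 0, and 1111 genes stood at the lowest step in all 33 libraries, so the lowest step was read as 0 reads with 1 added. Whole reads were recovered from the steps of the values (100% of low values within 0.25 of a whole read). They were used for edgeR 4.0.16 in 30 libraries. Replicate 2 of N5, S1 and S4 stayed out of it, a choice taken over from earlier work on these data and then checked. At a stricter tolerance of 0.1, up to 20 steps, 48.0% to 92.5% of their lowest values were whole, against at least 96.0% in the 30 used. The deposited values are rounded, and at a step of 0.045 RPM, as in S1 replicate 2, rounding alone can miss this tolerance. The check therefore does not show that these libraries were less recoverable. S4 had 2 libraries in edgeR. Totals include the added reads, and limits of 3 reads cover counting error only. No 2 replicate libraries were identical, and each of the 27 pairs with recovered reads differed by more than sampling noise (chi-square per degree of freedom 5.2 to 74.6, over genes with 20 or more reads). Same-numbered libraries of S3 and S4 deviated together (3 correlations of 0.236 to 0.372, against -0.278 to -0.0225 for the other 6 pairs). Deviations from the mean of a day sum to 0 for each gene, so these ranges are not independent of each other. Those numbers were taken to pair S3 with S4, from the data and not the labels. The 37 genes with a high day 4 did not follow this pairing, with their highest sums in S3 replicate 2 (226.91 RPM) and S4 replicate 3 (692.4 RPM). S5 was not paired with either (-0.0159 to 0.0615).

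The main test was limma 3.58.1 in R 4.3.3, with a variance trend, 11 group means, all 33 libraries, two-sided, and Benjamini-Hochberg adjustment over 18905 genes. It was also run on simulated reads with known changes and the same spread for all genes. That setting lacks the shared deviations of S3 and S4 replicates, so it does not measure the error of the calls made here. Named genes had the largest rise, largest fall, highest or lowest day 4 among called genes, given at least 10 RPM on average in the higher group and libraries that did not overlap. Gene lists by description could not be formed, since no identifier had a name. The design's tests were otherwise used as written. Members and lists were chosen with earlier results of these data known. The alternatives were pseudocounts, filters, rescaling, only the groups compared, a replicate block, also of S3 and S4 only, edgeR and leaving out each library.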

Additional observations from a re-analysis of the deposited data

Results flagged for a closer look

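The change from day 3 to day 5 differed between super and normal ovaries, by the interaction in limma, for 4067 genes, and for 2 of the 4 named genes. Csa3G021150 had an interaction of -3.66 on the log2(RPM + 1) scale (adjusted p 9.1e-05), at -3.84 in S5 against S3 and -0.18 in N5 against N3. It had already changed by -2.57 in N3 against N1. By edgeR on recovered reads the interaction was -4.44 (adjusted p 2.3e-04). Csa2G292830 had an interaction of 1.43 (SE 0.60, adjusted p 0.044), having risen by 4.36 in S5 against S3 and by 2.93 in N5 against N3. Its sign changed with the tool: edgeR gave -4.42 (adjusted p 0.09), which was not called, and all N3 libraries of this gene were at or under 3 reads. For Csa6G434410 the tool changed the call as well, with an interaction of 0.096 by limma (adjusted p 0.89, not called) and -5.27 by edgeR (adjusted p 0.022), and N3 at 0.05, 0.09 and 0.06 RPM.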

How the results depend on the processing

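The share of drift genes with S4 between S3 and S5, 86.1% in all, stayed between 82.8% and 89.7% under every alternative run. Counts moved by over 1.5 times with the treatment of low values. With a pseudocount of 0.1 the calls were 1387 for S5 against S3, 544 for S4 against S3, 481 for S5 against S4, 151 for day 4 off the midpoint and 1354 for S3 against S1. With one of 5 they were 379, 155, 70, 22 and 397, and 1014 for S7 against S5 and 2648 for the interaction with normal ovaries. EdgeR on recovered reads called 1469, 522, 463 and 1386 genes in S5 against S3, S4 against S3, S5 against S4 and S3 against S1. The filters, the rescaling and a fit of only the groups compared kept every total within 1.5 times, but rescaling moved the rises of S7 against S5 to 953 from 615 and the falls to 870 from 1633.

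With 1 library left out the counts ran from 771 to 991 for S5 against S3, 311 to 378 for S4 against S3, 193 to 310 for S5 against S4, 62 to 116 for day 4 off the midpoint, 798 to 943 for S3 against S1, 2002 to 3185 for S7 against S5 (the highest without S7 replicate 3, an alternative chosen after seeing the data) and 4013 to 4092 for the interaction, and the share between from 84.4% to 88.2%. Of the 846 genes of S5 against S3, 742 or more were called in the same direction each time. Csa2G292830 was no longer called above the midpoint on day 4 with a pseudocount of 0.1 or without S3 replicate 1 or S4 replicate 3, and Csa3G021150 became called below it with a pseudocount of 5, in the 9 libraries alone, with the replicate block or without S4 replicate 3. Csa7G450510 in S5 against S3, not called, changed sign to 0.014 without S3 replicate 1 (range -0.15 to 0.014 with 1 library left out). The causes were not tested.

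A replicate block over all 33 libraries gave 847 calls for S5 against S3. With the pairing of S3 and S4 as a replicate block, added after seeing the data, S4 against S3 had 349 calls in those 6 libraries and 347 in the 9, of which 338 and 337 were among the 340. Day 4 off the midpoint had 90, of which 86 were among the 88. At this depth a limit of 3 reads is 0.188 to 0.237 RPM, under which levels were not resolved.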
